A study of Mus musculus with 24 samples.

Results

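No imprinted gene in this set passed the genotype test in hindlimb buds of Nipbl+/- mouse embryos. The 95% interval of the array ratio to wild type stayed between 0.8 and 1.25 for 36 of 37 genes, and between 0.9 and its inverse for 14. The share of all genes within these bounds was not counted. The genes are a list of 41 imprinted genes that lie outside the Sgce locus, from 19 domains. A gene was included when a probe set carried its symbol alone, and the brightest probe set of a gene was used, which gave 37 of the 19937 genes measured. Snrpn, Ube3a and Gnas share their probe sets with other symbols, H19 had no probe set of its own symbol in the annotation used, and these 4 were not analysed here. Hindlimb buds, left and right together, were taken at E10.5 from 12 wild type embryos and from 12 embryos heterozygous for Nipbl (Nipbl+/-, RRS strain), and an Affymetrix Mouse Gene 1.0 ST array was run for each embryo. The values are log2 intensities normalized by the authors with RMA. A bud holds several cell types, so fewer cells of a type and less RNA per cell cannot be told apart.

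Genomic imprinting restricts a gene's expression to the allele inherited from the father or from the mother. Imprinted genes lie in clusters, or domains, each under a control region that carries DNA methylation on the chromosome of a single parent. At the control region between Igf2 and H19, CTCF binds the unmethylated copy and keeps enhancers from reaching Igf2. Cohesin, which Nipbl loads onto chromosomes, is found at many CTCF sites, including those of imprinted domains. Many imprinted genes act on fetal growth, with paternally expressed genes such as Igf2 tending to promote it and maternally expressed genes such as Igf2r, Grb10 and Cdkn1c tending to restrain it. Array signal sums both alleles, so the values below give the total transcript of a gene and not the allele it came from.

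The tissue carried the markers of its label. The hindlimb factors Tbx4 and Pitx1 lay at percentiles 96.6 and 95.7 of all genes by intensity, and Tbx5, which marks the forelimb, at percentile 22.1. The intensity of Nipbl itself averaged 10.52 ± 0.12 (log2, SD, n = 12) across wild type buds against 9.86 ± 0.12 (SD, n = 12) across heterozygous buds. The sexes were unequal, since Xist lay above the Y-linked genes in 8 of 12 wild type and 3 of 12 Nipbl+/- embryos. Wild type replicate 3 and Nipbl+/- replicate 2 stood apart in their median correlation with the other arrays, 0.9922 and 0.9915 against 0.9946 to 0.9963 in the other 22. Of the lists of markers for other cell types, endothelium had 0 of 10, erythroid 0 of 7, macrophage 0 of 11 and muscle precursors 0 of 7 measured genes past the test by limma, and the counts at an unadjusted p under 0.05, which 9.26% of all genes passed, were 1, 0, 5 and 2. The macrophage share was 45.5%. In the other lists 1 of 12 ectoderm, 1 of 10 nerve and Schwann and 1 of 10 mesenchyme genes was called by limma. Krt5 of the ectoderm list was lower (ratio 0.806) and Lhx9 of the mesenchyme list higher (1.11). Erbb3 of the nerve list was higher (1.19), called in 6 of 10 alternatives and lost, among others, with a covariate for embryo sex. Differences above and below 0 numbered 7 and 5 in the ectoderm list, 7 and 3 in the nerve list and 5 and 5 in the mesenchyme list. At an unadjusted p under 0.05, Epcam (1.11) and Sp8 (1.09) of the ectoderm were higher and Hand2 (0.919) of the mesenchyme lower. All 11 macrophage genes had a difference below 0, with a median log2 difference of -0.097, and their part in the values below was not tested.

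Several imprinted genes were among the brightest probe sets of the hindlimb bud. Mest, Igf2, Nnat, Peg3 and Grb10 lay in the brightest 1% of genes, 11 of the 37 genes lay in the brightest 10%, and 11 lay below the median gene. Brightness depends on the probes as well as on the amount of transcript, so this order is a rough one. Dio3, which inactivates thyroid hormone, Ascl2, a trophoblast transcription factor, and the neuronal Ras activator Rasgrf1 lay at percentiles 25.7, 28.2 and 22.1. No gene of the set separated the genotypes without overlap, and the share of all genes that did so was not counted.

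**Figure D1:**
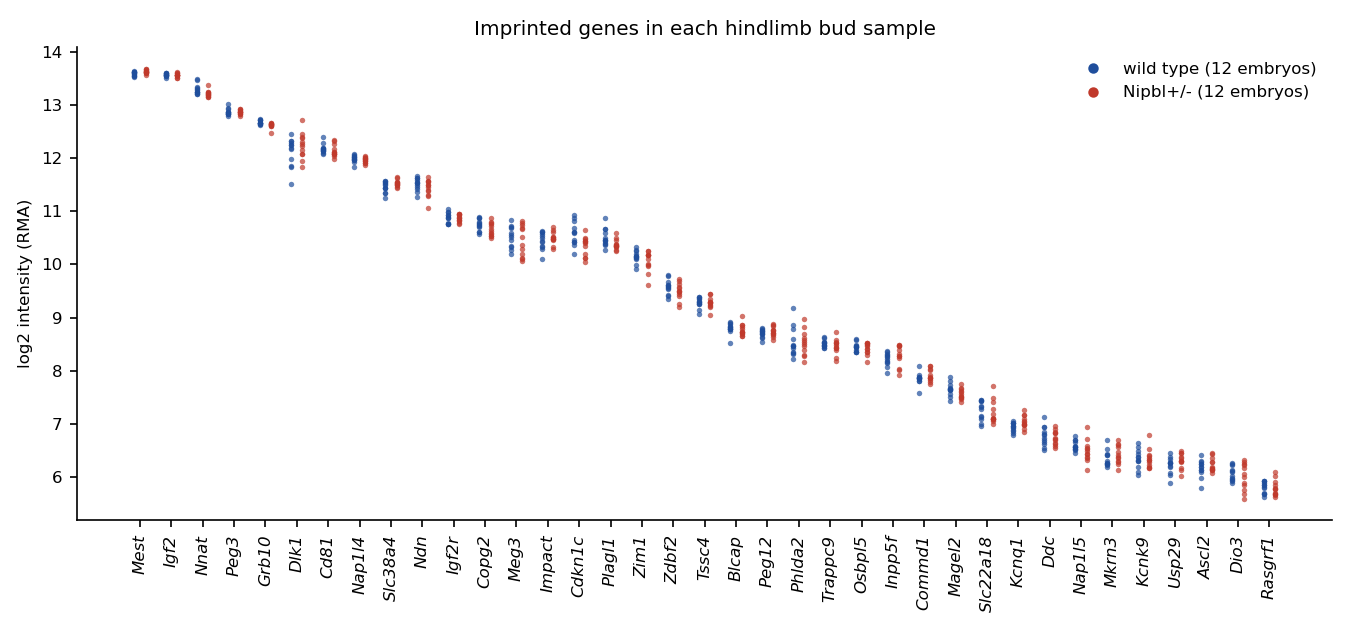
Log2 intensity (vertical axis, RMA values) of 37 imprinted genes in each of 12 wild type (blue) and 12 Nipbl+/- (red) embryos, 1 point per embryo, with genes ordered by their mean. The blue and red columns overlap for every gene, and the points of Igf2 and Mest span the shortest ranges at the bright end.

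The promoters of this set often held the hexamer TGCCGC, which ZFP57, a zinc finger protein that keeps imprints, binds when its CpG is methylated. RefSeq promoter sequences (GRCm38.p6, 250 bases before to 50 after each listed start) were matched for 31 of the 37 genes. The hexamer was found on either strand in 12 of 31 (38.7%), beside 17.2% of the 15613 array genes with a promoter entry. Among promoters with at least 17 CpG, the median of the set, it was found in 11 of 20 genes of the set and in 28.1% of 7760 array genes. A match describes letters only, and binding was not measured. The windows below are shown for genes described in full below whose promoter held the hexamer, each read 5′ to 3′ on the strand that holds the hexamer, with the hexamer in capitals and 10 bases on each side:
Mest, chr6:30737973-30737998, minus strand: ccgcccatccTGCCGCagcgcccctc
Igf2, chr7:142661226-142661251, plus strand: aaatctgtgcTGCCGCtgggacaccg
Nnat, chr2:157560095-157560120, minus strand: ctgggcgcaaTGCCGCagccccggtg
Grb10, chr11:12037381-12037406, plus strand: cttcccttccTGCCGCctccccgcac
Plagl1, chr10:13090732-13090757, minus strand: ccgtgggcttTGCCGCgcaacacgcc
Meg3, chr12:109540796-109540821, minus strand: aaaaaaaatcTGCCGCagtgcccctg
Zim1, chr7:6696437-6696462, plus strand: cggagtggaaTGCCGCgggatgactt
Mest held the hexamer at 1 further place, not shown. The Dlk1 promoter held none, and Cdkn1c and Kcnq1 were among the 6 genes without a promoter entry. The hexamer was held by promoters of both parental classes, 6 of 18 for paternally and 6 of 13 for maternally expressed genes.

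Between genotypes, 0 of 37 genes were higher and 0 lower in Nipbl+/- buds at an adjusted p under 0.05 by limma, where 0.813% of all genes were called (0.286% higher and 0.527% lower). At the wider adjusted p under 0.25, which 3.12% of all genes passed (1.21% higher and 1.91% lower), 0 of 37 were higher and 1 was lower, Cdkn1c. At an unadjusted p under 0.05 the set held 1 gene above wild type (Kcnq1, beside 4.13% of all genes) and 4 below it (Cdkn1c, Plagl1, Nnat and Grb10, beside 5.14% of all genes), together 13.5% of the set and 9.26% of all genes. The ratios of Nipbl+/- to wild type ran from 0.852 to 1.08. For 36 of the 37 genes the 95% interval of the ratio stayed between 0.8 and 1.25, and the exception was Cdkn1c. For 14 genes it stayed between 0.9 and its inverse. These bounds are wide beside the differences in this series, since 95% of all genes had an absolute log2 difference up to 0.138. The share of all genes whose interval stayed within them was not counted. The bounds hold for array ratios, which can understate a change in transcript. In the study, Shh and several Hox genes changed more by quantitative RT-PCR than by array, while Nipbl gave a like ratio by both. The median size of the log2 difference was 0.060 over the set and 0.040 over all genes.

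**Figure D2:**
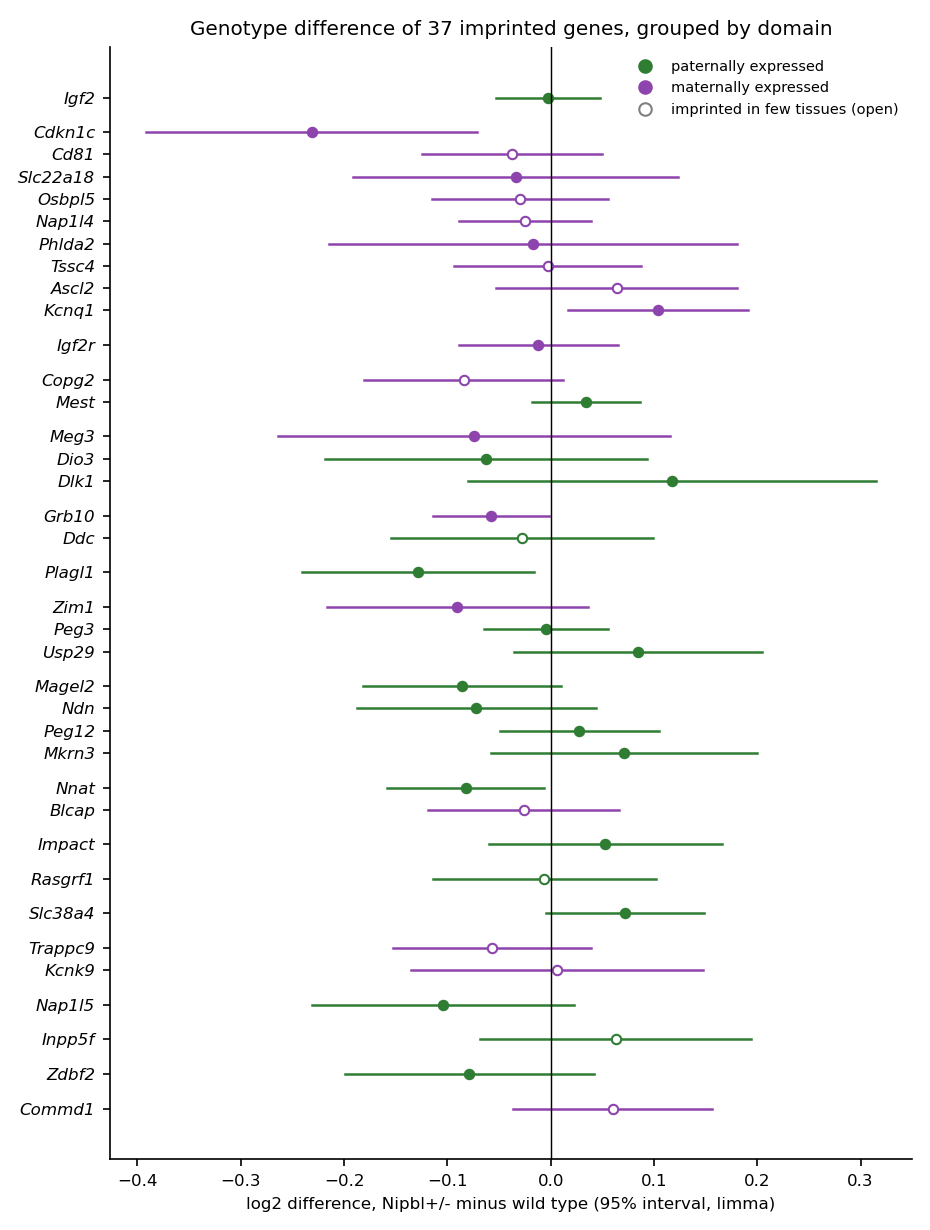
Log2 difference (horizontal axis, Nipbl+/- minus wild type) of each imprinted gene with its 95% interval from limma as a bar (12 embryos per genotype), grouped by domain, in green for paternally and purple for maternally expressed genes and with open points for genes imprinted in few tissues. Cdkn1c, at -0.23, lies farthest from 0, and most bars cross 0.

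Igf2, the fetal growth factor, had nearly the same intensity in both genotypes. Its log2 intensity ran from 13.51 to 13.60 (median 13.57) in wild type and from 13.50 to 13.61 (median 13.57) in Nipbl+/- embryos. The ranges coincided, and mutant embryos were split evenly about the wild type mean, 6 above and 6 below. The ratio was 0.998 with a 95% interval from 0.964 to 1.03 (adjusted p = 0.995 from limma). Its SD of 0.026 in wild type was smaller than that of most bright genes, with 4 of the 200 genes in the brightest 1% below it. The brightest gene on the arrays had a mean of 14.14, close above Igf2 at 13.57 and Mest at 13.61, and whether probes of these genes were near saturation, which would shrink a difference, was not tested.

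Igf2r, the receptor that carries Igf2 to the lysosome for breakdown, ran from 10.76 to 11.05 (median 10.89) in wild type and from 10.76 to 10.95 (median 10.88) in Nipbl+/- embryos, so that the mutant range lay within that of wild type. Its ratio was 0.992 (95% interval 0.940 to 1.05, adjusted p = 0.980 from limma). Grb10, an adaptor that dampens signalling from the insulin and Igf1 receptors, ran from 12.63 to 12.74 (median 12.67) in wild type and from 12.47 to 12.67 (median 12.63) in Nipbl+/- embryos. Each of the 12 mutants was under the wild type mean of Grb10, but the ranges overlapped and the difference was small. The log2 difference was -0.057 (standard error 0.027, ratio 0.961, adjusted p = 0.518 from limma).

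The partners of Igf2 outside the imprinted set held 1 called gene. Irs1, a docking protein that passes on signals of the insulin and Igf1 receptors, averaged 9.56 ± 0.13 (log2 intensity, SD, n = 12) across wild type buds against 9.25 ± 0.15 (SD, n = 12) across heterozygous buds. It was lower by a log2 difference of -0.32 (standard error 0.055) and a ratio of 0.803, with limma's adjusted p = 0.00201. Over the alternatives this p lay between 0.000913 and 0.0968, and the call was lost with the mean of its probe sets. Of 17 Igf axis genes measured, 0 were higher and 1 was lower, beside 0.813% of all genes called in either direction. At an unadjusted p under 0.05 from limma, 2 were higher and 3 lower (29.4%), beside 9.26% of all genes. Irs2, the related docking protein, and Pappa, a protease that releases Igf from its binding proteins, gave ratios of 0.910 and 0.914 (limma, adjusted p = 0.221 and 0.215). Stc2, an inhibitor of Pappa, and Igf2bp3, which binds Igf2 mRNA, gave 1.15 and 1.06 (limma, adjusted p = 0.266 and 0.315). The median log2 difference of the list was -0.024, beside -0.0049 over all genes.

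Cdkn1c, which encodes the cyclin-dependent kinase inhibitor p57, had the largest difference of the set. Its log2 intensity ran from 10.19 to 10.93 (median 10.60) in wild type and from 10.04 to 10.66 (median 10.42) in Nipbl+/- embryos. The groups overlapped over much of their range, with 11 of the 12 mutants under the mean of wild type. The log2 difference was -0.23 (standard error 0.078, ratio 0.852 with a 95% interval from 0.762 to 0.952), which did not pass the test over all genes (limma, adjusted p = 0.227, with 0.0403 to 0.359 across alternatives). The 0.0403 came from a fit with replicate number as a block, in which Cdkn1c was the 1 gene of the set called and 0.848% of all genes were called (0.241% higher and 0.607% lower). Within embryos whose Xist lay above the Y-linked genes the log2 difference was -0.19 (standard error 0.13, 8 wild type and 3 mutant), and within the rest -0.35 (standard error 0.12, 4 wild type and 9 mutant).

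Other genes of the Kcnq1 domain did not share the value of Cdkn1c. Kcnq1, a potassium channel subunit, ran from 6.80 to 7.05 (median 6.95) in wild type and from 6.85 to 7.26 (median 7.02) in Nipbl+/- embryos. In 10 of 12 mutants it exceeded the mean of wild type, on the other side of 0 from Cdkn1c. Its log2 difference of 0.10 (standard error 0.043) did not pass (limma, adjusted p = 0.388, with 0.0608 to 0.471 across alternatives). The deviations of Kcnq1 from its genotype mean followed the first residual component of the arrays (r = 0.77 over 24 embryos). That component, taken after genotype means were removed, followed the interquartile range of the array (r = -0.99). The deviations of Cdkn1c did not follow the component (r = -0.11). With the component as a covariate the log2 difference of Kcnq1 was still 0.10, with limma's adjusted p = 0.0608, the lowest of the alternatives. Phlda2, a pleckstrin homology protein that limits placental growth, had a ratio of 0.988 (95% interval 0.862 to 1.13). The other 6 genes of the domain, Slc22a18, Ascl2, Cd81, Tssc4, Osbpl5 and Nap1l4, had log2 differences from -0.037 to 0.064. Over the 9 genes of the domain the median was -0.025.

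In the Dlk1-Dio3 domain, the paternally expressed Dlk1 and the maternally expressed Meg3 had differences of opposite sign over all embryos. Dlk1, a membrane protein that holds back differentiation of fat and other mesenchymal cells, ran from 11.51 to 12.45 (median 12.22) in wild type and from 11.84 to 12.72 (median 12.25) in Nipbl+/- embryos. Meg3, a long noncoding RNA, ran from 10.20 to 10.83 (median 10.53) in wild type and from 10.07 to 10.82 (median 10.44) in Nipbl+/- embryos. Both spread widely and overlapped, and neither passed the test (ratio 1.08, adjusted p = 0.808, and ratio 0.950, adjusted p = 0.913, from limma). Within each embryo, Dlk1 minus Meg3 on the log2 scale was 1.60 ± 0.18 (SD, n = 12) for wild type against 1.79 ± 0.23 (SD, n = 12) for Nipbl+/-, and 10 of 12 mutants exceeded the wild type mean. This difference of 0.19 (standard error 0.083) had p = 0.0315 in a two-sided permutation test and p = 0.0630 when adjusted over the 2 pairs tested, so it was not called. With replicate number as a block it was called (adjusted p = 0.0352, exact paired permutation). With a covariate for embryo sex it was 0.26 (standard error 0.086, adjusted permutation p = 0.00974, the lowest of the alternatives, which reached 0.0865). Within embryos whose Xist lay above the Y-linked genes it was 0.28 (standard error 0.13), and within the rest 0.25 (standard error 0.11). In the former Dlk1 differed by 0.11 (standard error 0.20) and Meg3 by -0.17 (standard error 0.21), and in the rest both lay above wild type, by 0.31 (standard error 0.17) and 0.057 (standard error 0.13). With the sex covariate Dlk1 differed by 0.22, and it still did not pass (limma, adjusted p = 0.491). In the other pair of oppositely expressed neighbours, Peg3 minus Zim1, the genotypes differed by 0.086 (standard error 0.065, permutation p = 0.209). Dio3, at the far end of the domain, had a log2 difference of -0.062 (standard error 0.076).

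Plagl1, a zinc finger transcription factor known to act on other imprinted genes, ran from 10.27 to 10.88 (median 10.47) in wild type and from 10.25 to 10.59 (median 10.36) in Nipbl+/- embryos. In 11 of 12 mutant embryos it lay below the wild type mean, within the lower part of the wild type range. The log2 difference was -0.13 (standard error 0.055, ratio 0.915, adjusted p = 0.431 from limma). Nnat, a small membrane protein of the endoplasmic reticulum, ran from 13.20 to 13.49 (median 13.27) in wild type and from 13.14 to 13.38 (median 13.21) in Nipbl+/- embryos. In 11 of 12 mutant embryos it lay below the wild type mean, with a log2 difference of -0.082 (standard error 0.037, adjusted p = 0.476 from limma). Its neighbour Blcap, which is imprinted in brain, had a log2 difference of -0.026.

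Mest, a hydrolase-like protein of growing mesoderm, ran from 13.53 to 13.64 (median 13.61) in wild type and from 13.56 to 13.69 (median 13.62) in Nipbl+/- embryos. In 11 of 12 mutants it exceeded the mean of wild type, by a log2 difference of 0.034 (standard error 0.026, ratio 1.02 with a 95% interval from 0.987 to 1.06, adjusted p = 0.775 from limma). Peg3, a zinc finger protein, ran from 12.79 to 13.01 (median 12.86) in wild type and from 12.79 to 12.93 (median 12.87) in Nipbl+/- embryos, so that the mutant embryos lay inside the wild type range. Its ratio was 0.997 (95% interval 0.956 to 1.04, adjusted p = 0.992 from limma). The Snrpn-Ube3a domain, which is lost or silenced in Prader-Willi syndrome, was measured in Ndn and Magel2 of the MAGE family, Mkrn3 and Peg12. Their log2 differences ran from -0.086 for Magel2 to 0.071 for Mkrn3.

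By expressed allele, neither class held a called gene. Of 18 maternally expressed genes 14 had a difference below 0 (median log2 difference -0.028), and of 19 paternally expressed genes 11 did (median -0.0043), beside 53.5% of all genes. Of the 8 maternally expressed genes imprinted across the embryo, 7 lay below 0, the exception being Kcnq1. With a covariate for embryo sex 11 of the 18 maternal and 5 of these 8 genes lay below 0, beside 51.45% of all genes. With array medians set to 0 the counts below 0 were 13 of 18 maternal and 8 of 19 paternal genes, beside 45.3% of all genes. In that setting the paternal median turned to 0.0074 and the median over all genes to 0.0068. The 10 maternally expressed genes known to be imprinted in few tissues, mainly placenta or brain, among them Ascl2, Cd81, Osbpl5, Kcnk9 and Copg2, had log2 differences from -0.084 to 0.064.

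Genes beside the domains and genes that regulate imprints were compared in the same fit. Of 105 genes that are the 3 nearest measured neighbours on each side of a domain in RefSeq order, 1 was called higher and 0 lower, beside 0.813% of all genes in either direction. Egfr, beside Grb10, and Amigo2, beside Slc38a4, were called lower in 2 and 3 of 10 alternatives (limma, lowest adjusted p = 0.0337 and 0.0354, highest 0.454 and 0.448). The higher gene was Cep41, a centrosomal protein gene beside Mest, by 0.21 on the log2 scale (standard error 0.052, ratio 1.16, limma, adjusted p = 0.0466). Across the alternatives its adjusted p lay between 0.00185 and 0.168, the last with a covariate for embryo sex, and 6 of 10 called it. Of 23 genes listed as regulators of imprints, among them Dnmt1, Zfp57, Trim28 and Ctcf, 0 were called by limma. At an unadjusted p under 0.05 from limma 3 passed, each above wild type. Over all genes 9.26% passed in either direction and 4.13% above wild type. The 3 genes were Arid4a (ratio 1.14, adjusted p = 0.451 from limma), Eed, a Polycomb subunit (1.07, adjusted p = 0.439), and Tet1, which oxidises methylcytosine (1.06, adjusted p = 0.518). Below wild type, the smallest p from limma were those of Zfp57 (ratio 0.945, adjusted p = 0.541) and Dnmt3a (0.94, adjusted p = 0.669). Of 30 other imprinted genes measured, 0 were called, and 0 passed an unadjusted p under 0.05. Some of these 30, among them Ins2, Th, Slc22a2, Begain and Cobl, were also counted among the neighbours above, so the lists are not separate.

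The spread between embryos differed widely within the set. In wild type, the SD of Phlda2 (0.28), Dlk1 (0.27) and Cdkn1c (0.22) lay at percentiles 98.2, 98.0 and 94.3 of all genes, and that of Igf2 (0.026), Grb10 (0.035) and Mest (0.037) below percentile 1. The median of the set lay at percentile 38.7. In Nipbl+/- embryos Meg3 had the widest spread (SD 0.28, percentile 98.0), and Igf2 remained among the narrowest (SD 0.033). Of the 37 genes, 21 had a larger SD in Nipbl+/- embryos, beside 57.4% of all genes.

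**Figure D3:**
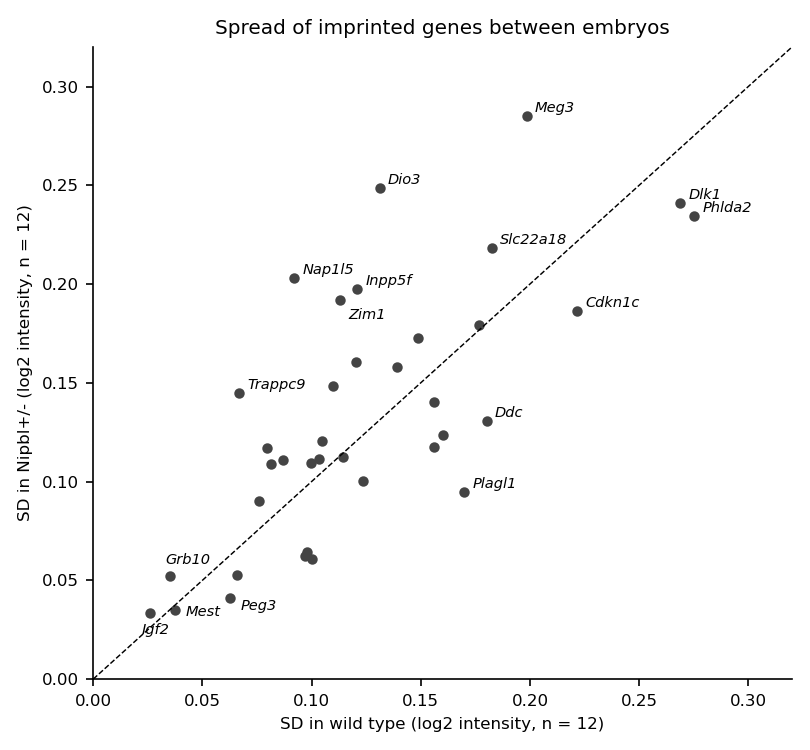
SD of the log2 intensity between 12 wild type embryos (horizontal axis) and between 12 Nipbl+/- embryos (vertical axis) for each imprinted gene, with the dashed line marking equal SD. Igf2, Mest, Grb10 and Peg3 sit at the low end on both axes, and Dlk1, Phlda2, Meg3 and Cdkn1c at the high end.

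Some imprinted genes varied together from embryo to embryo. Over deviations from the genotype mean in 24 embryos, Dlk1 and Meg3 varied together (Pearson r = 0.67, permutation p = 0.00024, adjusted p = 0.0012 over 5 pairs tested, and Spearman rho = 0.66, permutation p = 0.00071). The relation was 0.76 in wild type and 0.64 in Nipbl+/- embryos, and 0.59 without the 2 embryos farthest on Dlk1. Embryos high for the paternally expressed gene of this domain were thus also high for the maternally expressed one. Igf2 and Cdkn1c also varied together (r = 0.60, permutation p = 0.00223, adjusted p = 0.00557, and rho = 0.61, permutation p = 0.00273), with r = 0.73 in wild type, 0.50 in Nipbl+/- and 0.59 without the 2 embryos farthest on Igf2. With array medians set to 0 it was 0.47 (adjusted permutation p = 0.0361), and on ranks it was then no longer called (rho = 0.43, adjusted permutation p = 0.0654). The whole range of Igf2 in that relation was narrow, as its SD shows. Igf2 and Peg3 gave r = 0.43 (permutation p = 0.0294, adjusted p = 0.0490) but rho = 0.38 (permutation p = 0.0674, adjusted p = 0.112), and r moved from 0.36 with the first residual component removed to 0.79 with array medians set to 0. Igf2 and Dlk1 (r = -0.31, adjusted permutation p = 0.179) and Igf2 and Plagl1 (r = 0.12, adjusted permutation p = 0.546) did not pass.

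**Figure D4:**
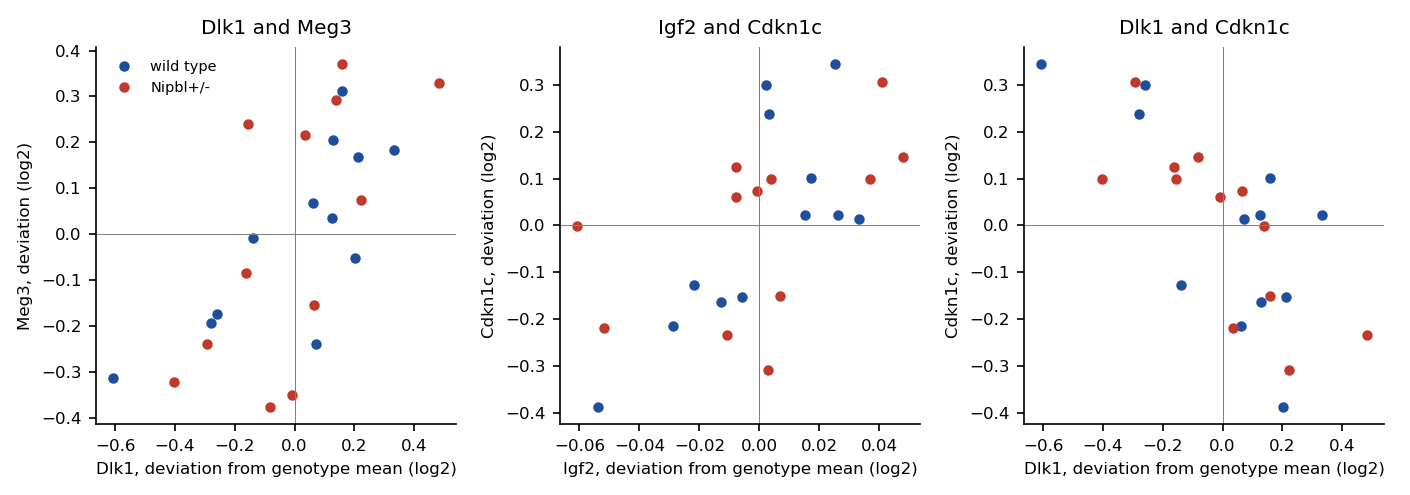
Deviation of each embryo from the mean of its genotype on the log2 scale, for Dlk1 and Meg3, Igf2 and Cdkn1c, and Dlk1 and Cdkn1c, with wild type embryos in blue and Nipbl+/- embryos in red (12 each). Points rise from left to right in the first and second panels (r = 0.67 and 0.60) and fall in the last, where r was -0.73.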

How the data were processed

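RNA of hindlimb buds of 12 wild type and 12 Nipbl+/- embryos was hybridised to 1 Affymetrix Mouse Gene 1.0 ST array per embryo. The deposited values are log2 intensities that the authors computed in GenePattern (Expression File Creator). RMA is named in the submitters' processing notes, with its version not given in the sources used here. RMA corrects background, equalises the distributions of arrays and summarises probe sets, which can hide a shift common to most genes. Array medians ran from 7.24 to 7.39 and 0 pairs of arrays were identical. Precision depends on how many embryos there are and on the spread between them. The study describes the embryos as littermates, but the labels do not give the litter, so it was not modelled.

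Of 28159 probe sets, 21640 had 1 gene symbol, 1321 several and 5198 none listed. The brightest probe set of each symbol gave 19937 genes. All 37 measured imprinted genes had 1 probe set each. By Entrez ID, 21547 probe sets matched RefSeq genes of GRCm38.p6, used for gene order. Parental alleles and domains are textbook assignments. The imprinted genes, lists and tests were chosen with earlier results of these data known.

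Genotypes were compared with limma 3.58.1 (lmFit, eBayes) in R 4.3.3 on all genes, with Benjamini-Hochberg adjustment. The replicates are separate embryos. Named genes were, by rule, any member past the threshold, the classical imprinted genes Igf2, Dlk1, Meg3, Igf2r, Mest, Cdkn1c, Grb10, Peg3 and Plagl1, members at an unadjusted p under 0.05, the lowest and highest differences, and in other lists the called genes and up to 2 of smallest p per direction. Other names were added after their values were seen. Log ratios of neighbours and correlations used 100000 permutations (Python 3.11.15). The pair of Igf2 and H19 was not tested because H19 was not measured. The fit was tested on simulated data. The sex covariate was Xist minus the mean of the Y-linked genes Eif2s3y, Kdm5d and Uty. Alternatives covered variance model, linear scale (Welch's test per gene across all genes), array weights, replicate number, sex, first residual component, array median, probe set choice, dim genes and threshold. Leaving out 2 arrays was chosen after seeing the data. Figures used matplotlib 3.10.9.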

Additional observations from a re-analysis of the deposited data

How the results depend on the processing

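Over all alternatives, 0 imprinted genes were called higher, and 1 was called lower in 2 settings, with replicate number as a block and at an adjusted p under 0.25. This was Cdkn1c both times (adjusted p = 0.0403 from limma with the block, where 0.848% of all genes were called). The deviations of same-numbered embryos had a correlation over 0.1 in 5 of 12 pairs (from -0.35 to 0.28, median -0.022). Of the wild type embryos, 3 of 12 correlated best with their own number, so the number is not taken as a pairing. With the block, Dlk1 minus Meg3 differed by 0.19 with an adjusted p of 0.0352 (exact paired permutation), and 48 genes were higher and 121 lower of all genes. Dlk1 minus Meg3 also passed with the sex covariate (0.26). Igf2 and Peg3 lost their call with the first residual component removed (r = 0.36) and without wild type replicate 3 and Nipbl+/- replicate 2 (r = 0.35). Counts over all genes, 57 higher and 105 lower, moved to 101 and 180 with array weights, 222 and 293 with the first residual component, 37 and 67 with array medians set to 0, and 30 higher with the sex covariate. Some values near 0 that were not called changed sign. With array medians set to 0 these were the paternal median (0.0074), Igf2 (0.0090) and Peg3 (0.0074), and the median over all genes also turned, to 0.0068. Without the 2 arrays they were the paternal median (0.00092), Igf2 (0.00092) and Peg3 (0.0021), and with the sex covariate Igf2r (0.019). Causes were not tested. Signal over background was not measured, so how far dim probe sets such as those of Rasgrf1, Dio3 and Ascl2 can show a difference was not tested.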

Other observations

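Beyond the pairs tested, the deviations of embryos from their genotype means were correlated for several imprinted genes of different domains. These relations were noticed among 666 pairs, are given without a test, and share the same 24 arrays. Cdkn1c varied with Copg2, a coatomer subunit beside Mest (r = 0.81, and 0.90 with the first residual component removed), and against Slc38a4, a neutral amino acid transporter (r = -0.74 and -0.81), and Dlk1 (r = -0.73 and -0.73). Dlk1 varied with Slc38a4 (r = 0.64 and 0.74) and Igf2r (r = 0.69 and 0.80). Phlda2 varied with Plagl1 (r = 0.75 and 0.75) and Zim1 (r = 0.68 and 0.68). In all, 34 pairs had r over 0.6 and 12 had r under -0.6, and with the component removed 19 and 6 did. The component held 34.3% of the residual variance over all genes. Pairs of other genes were not counted, so whether these counts are particular to imprinted genes was not tested. Genes of the same domain were tied little more than others, with a median r of 0.12 over 52 pairs of the same domain and 0.047 over the rest with the component removed.

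The pair of Inpp5f and Slc22a18 had r = -0.85, which became -0.23 with the component removed.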
